A study of Mus musculus with 14 samples.

Results

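The heterotrimeric G protein subunits and the regulators of G protein signalling (RGS proteins) were followed in the cortical transcriptomes of 2 mouse models of the microRNA family miR-29. Members were taken by gene symbol alone, as the Gna, Gnb and Gng genes of the Gs, Gi, Gq and G12 classes and the genes named Rgs with a number. No measured value entered that rule, but the members were chosen with earlier results of these data known. It gave 49 of the 24444 genes of each deposited table, of which 28 encode G protein subunits (13 alpha, 5 beta and 10 gamma) and 21 encode RGS proteins.

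miR29Nestin mice (n = 3) had floxed alleles of both miR-29 clusters, miR-29ab1 and miR-29b2c, together with Nestin-Cre. This recombinase acts in neural progenitors, from which neurons, astrocytes and oligodendrocytes descend, whereas microglia arise elsewhere. They were set against miR29WT mice (n = 3), all at postnatal day 40, and the labels do not say whether the wild types carried floxed alleles or Cre. Dnmt3a-mi5 mice (n = 4) kept the microRNAs and carried a CRISPR knock-in in Dnmt3a, which encodes a DNA methyltransferase: 5 seed matches in its 3′ UTR were changed from TGGTGCT to CACGGCT, in all cells. They were set against Dnmt3a-WT mice (n = 4), all at 4.5 months. Kits differed between the models, so each was tested only within its own table, and no level is compared across tables.

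Dnmt3a is itself a known target of miR-29, and its level went with the labels. It was 5275 to 5859 normalised counts (reads scaled to a common library size) in miR29Nestin and 1605 to 1724 in miR29WT, and 1948 to 2249 in Dnmt3a-mi5 and 1062 to 1234 in Dnmt3a-WT. The 4 miR-29 precursor genes had no counts in any library, so they checked nothing. The miR29 libraries held 9.18 to 14.4 M reads in genes, and the depth of the Dnmt3a libraries is unknown. Markers of cortical excitatory neurons were present in every library. By Y-linked genes, 1 of 3 miR29Nestin and 2 of 3 miR29WT mice were male. Markers of striatal projection neurons varied within every group, at summed counts of 7459 to 16308 in miR29Nestin and 9864 to 15981 in miR29WT, and of 8679 to 17068 in Dnmt3a-mi5 and 7604 to 12272 in Dnmt3a-WT. Of 7 leptomeningeal fibroblast markers tested 5 were higher in miR29Nestin (Col1a1, Col1a2, Igf2, Mgp and Islr). The summed counts were 1729.9 to 2237 in miR29Nestin and 821 to 1361 in miR29WT. Igf2 alone averaged 1162 in miR29Nestin and 585 in miR29WT. Dcn and Slc6a13 did not pass (log2 differences −0.07 and 0.15, limma adjusted p = 0.716 and 0.184). Whether the groups differ in fibroblast content was not tested.

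A heterotrimeric G protein is an alpha subunit bound to a beta-gamma pair beneath the membrane. An activated receptor makes the alpha subunit exchange GDP for GTP and part from beta-gamma, and each side then acts on its own effectors: adenylyl cyclase, phospholipase C beta and ion channels. RGS proteins speed up the hydrolysis of GTP by the alpha subunit and so shorten the signal. In the cortex this cycle serves the receptors for dopamine, serotonin, noradrenaline, acetylcholine, glutamate and GABA.

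The miR-29 family acts through bases 2 to 8 of its mature strands, the seed, which is the same in all of its members. The RefSeq sequences (GRCm38.p6) are printed 5′ to 3′ with the seed in capitals, because the sites searched for among the G protein and RGS genes are matches to it. miR-29b is encoded at 2 loci with the same mature strand.
mmu-miR-29a-3p: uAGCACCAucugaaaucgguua
mmu-miR-29b-3p: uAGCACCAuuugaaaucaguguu
mmu-miR-29c-3p: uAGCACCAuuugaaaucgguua

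Exact matches of the site TGGTGCT were found in the longest annotated 3′ UTR (GENCODE M21, GRCm38) of 6 of the 49 members, against 13.5% of the 19863 genes of the tables with an annotated 3′ UTR. They were Gng12, Gng2, Gna12, Gna13 and Rgs12 with 1 site each and Rgs8 with 3. Each window below is the sense strand, 5′ to 3′, with the site in capitals. An A follows the site, as in the longest form of seed match, in Gng12 and in none of the other windows. A match describes the sequence and is not a measured binding site.
Gng12, chr6:67020929-67020958, plus strand: gccaacgtgtTGGTGCTataagctgcttca
Gng2, chr14:19875038-19875067, minus strand: gtgttgtgacTGGTGCTtccatatctgtga
Rgs8, chr1:153696807-153696836, plus strand: ctctgttttcTGGTGCTttctccagaactt
Rgs8, chr1:153698050-153698079, plus strand: tctccctgaaTGGTGCTgcattagtcatca
Rgs8, chr1:153698082-153698111, plus strand: tctttgtgccTGGTGCTcaggtcctgctga
Gna12, chr5:140759802-140759831, minus strand: gtacacgtagTGGTGCTctctactccttca
Gna13, chr11:109397420-109397449, plus strand: ctctgaactgTGGTGCTctcgggcttctct
Rgs12, chr5:35031936-35031965, plus strand: aaggaagaccTGGTGCTgcccgagtttctt

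Without miR-29, 13 of the 40 members tested were lower and 1 was higher in the P40 cortex. The lower ones were the alpha subunits Gnal, Gnaz and Gnaq, the beta subunits Gnb1 and Gnb4, the gamma subunits Gng2 and Gng10, and Rgs5, Rgs6, Rgs7, Rgs8, Rgs10 and Rgs20. The higher one was Gng12. A member was called at a limma adjusted p under 0.05, with the adjustment over all 12014 genes tested. That made 35% of the members tested, and 19.1% of all genes tested were called. By direction, 32.5% of members were lower against 10% of all genes, and 2.5% were higher against 9.02%. Quantile normalisation gave 12 lower and 3 higher members, because Gnas and Gnb5 then passed and Gnb1 did not. In bulk RNA, fewer cells of a type and less RNA per cell cannot be told apart.

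The same lean showed in the raw separation of the libraries. For 17 of 40 members (42.5%) every miR29Nestin library lay below every miR29WT library, against 18.7% of all genes. For 1 member (2.5%) every one lay above, against 18.6% of all genes. The median log2 difference over the 40 members was −0.08, and −0.01 over all genes. At an unadjusted p under 0.05 stood 19 members (47.5%), and 33.0% of all genes. The remaining 9 members, Gna14, Gna15, Gnb3, Gng8, Rgs1, Rgs13, Rgs18, Rgs21 and Rgs22, lay below the filter on low values and were not tested. Their group means were at most 20.8 normalised counts, and Rgs21 was listed at 0 throughout.

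**Figure D1:**
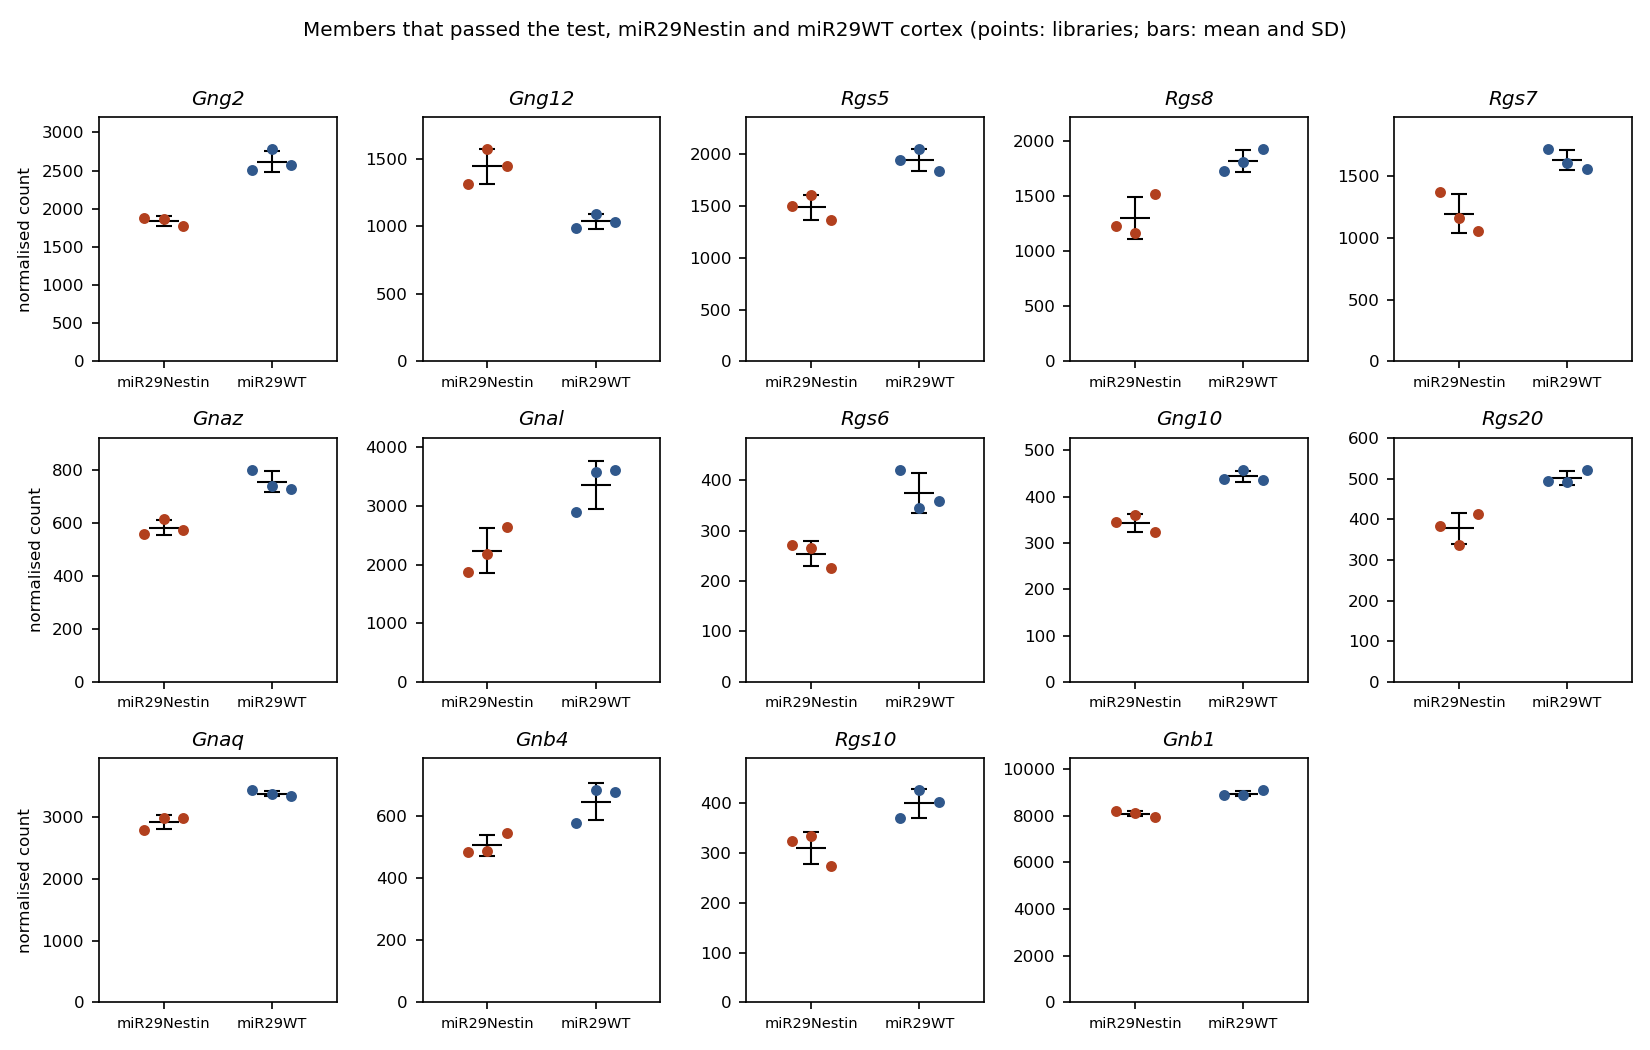
Normalised counts (y axis, from 0) of the 14 members that passed the test, in the 3 miR29Nestin and the 3 miR29WT libraries. Points are libraries and bars the mean and SD. Gng12 stands higher in miR29Nestin, the other 13 lower, and in all 14 panels the libraries of the groups do not overlap.

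Alpha subunits of the Gi, Go and Gz class lower cyclic AMP. Gnaz, whose product hydrolyses GTP slowly and resists pertussis toxin, had 558, 614 and 573 normalised counts in miR29Nestin libraries 1 to 3 and 800.4, 738 and 729 in miR29WT libraries 1 to 3. All 3 miR29Nestin libraries were lower, and the means differed 0.77-fold (log2 difference −0.30, SE 0.06, limma adjusted p = 0.00537). The log2 differences here are those of the deposited variance-stabilised values, which compress the differences of low counts. Gnaz overlaps Rsph14 on the opposite strand.

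Gnai1, Gnai2, Gnai3 and Gnao1 did not pass. Gnao1, the Go subunit that abounds in neurons, averaged 8330.1 ± 216 normalised counts in miR29Nestin and 9047 ± 120.4 in miR29WT (SD, n = 3 each; log2 difference −0.12, limma adjusted p = 0.0729). Gnai1 averaged 1670.5 ± 33.6 in miR29Nestin and 1888 ± 107 in miR29WT (−0.16, adjusted p = 0.0613). For both, all miR29Nestin libraries lay below all miR29WT libraries. Both passed with the replicate number as a block (limma adjusted p = 0.0486 for Gnao1 and 0.0397 for Gnai1), so that 3 of 5 genes of the class were lower in that fit. Of all 12014 genes tested 1628 were lower in that fit, and 1205 in the main fit. The labels state no pairing, and the block was taken up from correlations within these same values. The broadly expressed Gnai2 and Gnai3 had log2 differences of −0.04 and −0.05 (limma adjusted p = 0.615 and 0.571), with libraries that overlapped.

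Gs and Golf raise cyclic AMP. Gnal encodes Golf, which couples dopamine and adenosine receptors to adenylyl cyclase in the striatum and odorant receptors in the olfactory epithelium. It had 1879, 2179 and 2643 normalised counts in miR29Nestin libraries 1 to 3 and 2889, 3572 and 3614 in miR29WT libraries 1 to 3. The highest miR29Nestin library stayed below the lowest miR29WT library. The means, 2234 ± 385 in miR29Nestin and 3358 ± 407 in miR29WT (SD, n = 3 each), differed 0.665-fold, with a log2 difference of −0.56 (SE 0.11, limma adjusted p = 0.00551). Gnal overlaps Chmp1b on the same strand and Mppe1 on the opposite one, so its reads are less certain. Gnas, the subunit of Gs itself, averaged 18583 ± 1079 normalised counts in miR29Nestin and 17364 ± 907 in miR29WT, with a log2 difference of 0.10 (limma adjusted p = 0.239). With quantile normalisation its difference was 0.18 and its limma adjusted p = 0.0201.

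Markers of striatal projection neurons were followed beside Gnal, because Gnal, Gng7 and Rgs9 are all enriched in those cells. Their summed count was 7459, 11433 and 16308 in miR29Nestin libraries 1 to 3 and 9864, 14122 and 15981 in miR29WT libraries 1 to 3. Of 9 markers tested 1 was lower, Foxp1, which cortical neurons also express, and 4 were lower with the replicate block. No marker of the list was listed at 0 throughout. With the markers' mean as a covariate, an alternative chosen after seeing the data, the log2 difference of Gnal was −0.47 (limma adjusted p = 1.40e-05). In the same fit Gng7 had −0.13 (adjusted p = 0.0867), against −0.28 (adjusted p = 0.33) without the covariate.

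The plot of these 3 members against the marker sum shows the libraries of both models. In the miR29 table the miR29Nestin libraries stood lower in Gnal than miR29WT libraries of a like marker sum. miR29Nestin library 3, with the highest sum of the table, had 2643 normalised counts of Gnal, and miR29WT library 1, with a sum of 9864, had 2889. Gng7, a gamma subunit that pairs with Golf in the striatum, had 1794, 2661 and 3228 normalised counts in miR29Nestin libraries 1 to 3 and 2316, 3439 and 3613 in miR29WT libraries 1 to 3. Rgs9, which acts on dopamine receptor signals there, had 603, 1209 and 1683 in miR29Nestin libraries 1 to 3 and 776, 1297 and 1438 in miR29WT libraries 1 to 3. Both spread over a wide range in each group, in the order of the marker sum. Gng7 passed with the replicate block (limma adjusted p = 0.00246) and Rgs9 did not pass (log2 difference −0.06, adjusted p = 0.906). With the marker covariate the sign of Rgs9 turned, to 0.16 (limma adjusted p = 0.0357).

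**Figure D2:**
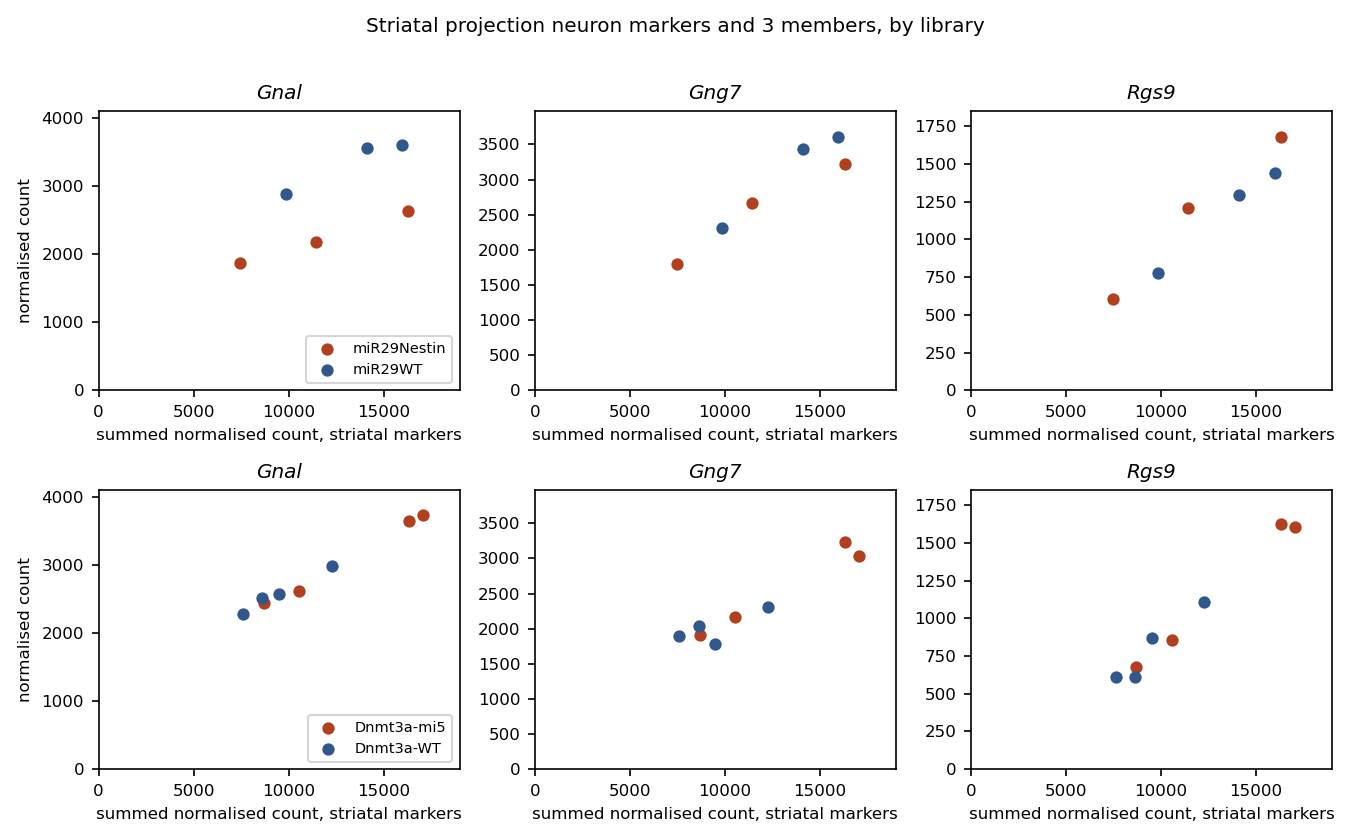
Normalised counts of Gnal, Gng7 and Rgs9 (y axes) against the summed normalised count of striatal projection neuron markers (x axes), 1 point a library, for miR29Nestin and miR29WT (top) and Dnmt3a-mi5 and Dnmt3a-WT (bottom). The 3 genes tend to be higher where the marker sum is higher, and only for Gnal in the top row do the groups stand apart, with miR29Nestin at 1879 to 2643 and miR29WT at 2889 to 3614.

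Gq and G11 activate phospholipase C beta. Gnaq had 2791, 2980.4 and 2973 normalised counts in miR29Nestin mice and 3428, 3361 and 3339 in the miR29WT libraries. The groups did not overlap, and the means differed 0.863-fold (log2 difference −0.20, SE 0.05, limma adjusted p = 0.0135). Gna11 averaged 1821 ± 26 in miR29Nestin and 1915 ± 92.7 in miR29WT (SD, n = 3 each), and its log2 difference of −0.07 did not pass (limma adjusted p = 0.41). Gna14 and Gna15, which are used mostly in other tissues, were below the filter, at means of 1.54 and 15.5 normalised counts in miR29Nestin and of 1.87 and 20.8 in miR29WT.

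The alpha subunits of the G12 and G13 class are broadly expressed. Gna13, which has 1 miR-29 site, had 643, 698 and 748 normalised counts in miR29Nestin mice and 696, 696 and 754 in the miR29WT libraries, a spread that overlapped (log2 difference −0.03, SE 0.06, limma adjusted p = 0.762). Gna12, also with 1 site, averaged 769.9 ± 47 in miR29Nestin and 765 ± 30 in miR29WT (log2 difference 0.01, limma adjusted p = 0.948).

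Beta subunits hold the gamma subunit and contact most effectors of the pair. Gnb1, the leading beta subunit of these libraries, had 8222, 8101 and 7969 normalised counts in miR29Nestin mice and 8882, 8883 and 9093 in the miR29WT libraries. The spread within each group was small beside the gap between them, and the means differed 0.904-fold (log2 difference −0.14, SE 0.04, limma adjusted p = 0.0317). The call was among the weakest: it was lost without any 1 library but miR29Nestin library 1 (limma adjusted p = 0.0596 to 0.12), under quantile normalisation (0.164) and with the Y-linked score as a covariate (0.0552). Gnb4 had 483, 487 and 546 normalised counts in miR29Nestin mice and 577, 683 and 679 in the miR29WT libraries, again without overlap (0.782-fold, log2 difference −0.27, SE 0.07, limma adjusted p = 0.0201). Leaving out miR29Nestin library 2 (adjusted p = 0.0787), or library 2 (0.0895) or 3 (0.0842) of miR29WT, ended this call.

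Gnb2 and Gnb5 did not pass, and Gnb3, used in cone photoreceptors, had means of 0.612 in miR29Nestin and 0.71 in miR29WT. Gnb2 averaged 2983 ± 104 normalised counts in miR29Nestin and 3175 ± 52.4 in miR29WT (log2 difference −0.09, limma adjusted p = 0.238). Gnb5 does not pair with gamma subunits as the others do but with the R7 class of RGS proteins, which it stabilises. It had 2096, 2267 and 2410.5 normalised counts in miR29Nestin mice and 1867, 1996 and 2112 in the miR29WT libraries. The values overlapped at their edges, and the log2 difference was 0.17 (SE 0.06, limma adjusted p = 0.0888). It passed with the replicate block (adjusted p = 0.0196), under quantile normalisation (0.0392) and without miR29Nestin library 1 (0.0358). Values of Gnb5 in every library are given because it partners the R7 proteins, a choice made after its values were seen.

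Gamma subunits anchor the pair in the membrane by a lipid tail and differ most in where they are expressed. They held the 1 rise and, by adjusted p, the firmest of the falls among the members. Gng2, a gamma subunit of many neurons, had 1882, 1869.8 and 1769 normalised counts in miR29Nestin mice and 2506, 2778 and 2568 in the miR29WT libraries. The means, 1840.4 ± 61.9 in miR29Nestin and 2617 ± 143 in miR29WT (SD, n = 3 each), differed 0.703-fold, with a log2 difference of −0.47 (SE 0.05, limma adjusted p = 2.29e-04). Gng2 lies at chr14:19872559-19977627 on the minus strand, and a pseudogene named Gng2-ps1 is annotated. Gng12, a gamma subunit of broad tissue distribution, had 1315, 1572 and 1447 normalised counts in miR29Nestin mice and 987, 1096 and 1029.8 in the miR29WT libraries. Here every miR29Nestin library was the higher, and the means of 1445 ± 128 and 1037 ± 54.8 (miR29Nestin and miR29WT, SD, n = 3 each) differed 1.39-fold (log2 difference 0.41, SE 0.07, limma adjusted p = 0.0018). Gng12 lies at chr6:66896397-67021350 on the plus strand, and both genes carry 1 miR-29 site in the 3′ UTR, shown above.

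Gng10 was lower as well, with counts of 345, 361 and 323 in miR29Nestin and of 438, 458 and 437 in miR29WT (0.772-fold, log2 difference −0.27, SE 0.06, limma adjusted p = 0.00984). A same-strand gene model, Gm20503, overlaps it. Gng3, a gamma subunit of neurons, averaged 2832 ± 81.4 in miR29Nestin and 3076 ± 69.4 in miR29WT (SD, n = 3 each). Its libraries did not overlap, but it did not pass (log2 difference −0.11, limma adjusted p = 0.12). Gng4, Gng5, Gng11 and Gng13 had positive log2 differences of 0.03 to 0.17, with limma adjusted p from 0.138 to 0.849. Gng8 averaged 8.88 in miR29Nestin and 8.47 in miR29WT, below the filter.

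RGS proteins of the R4 class are small and consist of little beyond the RGS domain. Rgs8, a brain protein of this class, had 1226, 1165 and 1521 normalised counts in miR29Nestin mice and 1722, 1810.0 and 1923 in the miR29WT libraries. No miR29Nestin library reached the lowest miR29WT library (0.717-fold, log2 difference −0.44, SE 0.08, limma adjusted p = 0.00447). It carries 3 miR-29 sites, the most of any member, and was lower in the mice without miR-29. Rgs5, known as a marker of pericytes, had 1499, 1607 and 1363 normalised counts in miR29Nestin mice and 1941, 2049 and 1842 in the miR29WT libraries (0.766-fold, log2 difference −0.35, SE 0.06, limma adjusted p = 0.00391). Of 9 pericyte and smooth muscle markers tested 2 were higher, Pdgfrb and Myh11, and none lower (6 of 9 differences were positive). Their summed counts were 1906 to 2258 in miR29Nestin and 1752 to 1918 in miR29WT, and none was listed at 0 throughout. Kcnj8, Abcc9 and Vtn of that list had log2 differences of −0.01, 0.02 and −0.05 and did not pass. The part of pericytes in the level of Rgs5 was not tested.

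Rgs4, the neuronal R4 protein most abundant here, averaged 11124 ± 519.7 normalised counts in miR29Nestin and 11749 ± 393 in miR29WT (SD, n = 3 each), with a log2 difference of −0.08 that did not pass (limma adjusted p = 0.28). Rgs2, Rgs3 and Rgs16 had log2 differences of −0.01 to 0.06 (limma adjusted p from 0.533 to 0.957). The immune and blood cell members Rgs1, Rgs13 and Rgs18 and the taste cell member Rgs21 lay below the filter, each at no more than 8.15 normalised counts in any library. Rgs18, singled out after its values were seen, had 6.51, 5.01 and 8.15 normalised counts in miR29Nestin and 1.1, 2.6 and 0 in miR29WT, a few reads per library.

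The R7 class (Rgs6, Rgs7, Rgs9 and Rgs11) works in neurons as a complex with Gnb5 on Gi and Go signals. Rgs7 had 1368, 1162 and 1057 normalised counts in miR29Nestin mice and 1717, 1606 and 1559.8 in the miR29WT libraries. All miR29Nestin libraries were lower, with means of 1195 ± 158 in miR29Nestin and 1627 ± 80.8 in miR29WT (0.734-fold, log2 difference −0.40, SE 0.08, limma adjusted p = 0.00518). Rgs6, the closest relative, had 272, 265 and 226 in the miR29Nestin libraries and 420.4, 345 and 359 in the miR29WT libraries (0.678-fold, log2 difference −0.37, SE 0.07, limma adjusted p = 0.00582). So 2 of 4 members of the class were lower, while their partner Gnb5 had a positive difference. Rgs11 averaged 473 ± 26.9 in miR29Nestin and 445 ± 39 in miR29WT (0.07, limma adjusted p = 0.532). The membrane anchor Rgs7bp averaged 3011 ± 661 in miR29Nestin and 3552 ± 259 in miR29WT (log2 difference −0.24, limma adjusted p = 0.188), and the orphan receptor Gpr158, which holds Rgs7 complexes, 2364 ± 199 in miR29Nestin and 2486 ± 94.8 in miR29WT (−0.07, adjusted p = 0.474). Of these 2 tested partners 0 passed, and 1 was lower with the replicate block.

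The RZ class acts on Gz in particular. Rgs20, known as RGSZ, had 384, 336 and 413 normalised counts in miR29Nestin mice and 494, 491 and 522 in the miR29WT libraries (0.752-fold, log2 difference −0.30, SE 0.07, limma adjusted p = 0.00995). Its substrate Gnaz was thus lower in the same libraries and by a like amount. Rgs20 overlaps Atp6v1h on the opposite strand. Rgs17 and Rgs19 had log2 differences of 0.11 and −0.08 and did not pass (limma adjusted p = 0.307 and 0.42).

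Of the R12 class, Rgs10, a small RGS protein of microglia and neurons, had 323, 333 and 273 normalised counts in miR29Nestin mice and 369, 425 and 402 in the miR29WT libraries (0.777-fold, log2 difference −0.25, SE 0.07, limma adjusted p = 0.0292). The call was lost when library 3 of miR29Nestin (adjusted p = 0.0792), or library 2 (0.114) or 3 (0.0885) of miR29WT, was left out. Of 8 microglial markers 0 passed in this comparison, with summed counts of 4708 to 5142 in miR29Nestin and 4868 to 5219 in miR29WT. Rgs12 averaged 547 ± 74.3 in miR29Nestin and 631 ± 78 in miR29WT (log2 difference −0.16, limma adjusted p = 0.241). Rgs14, enriched in hippocampal area CA2, averaged 663 ± 54.2 in miR29Nestin and 568 ± 81.6 in miR29WT (0.18, adjusted p = 0.165). Of 5 CA2 and dentate markers tested 2 were higher and 1 lower, with summed counts of 5205 to 5649.8 in miR29Nestin and 4641 to 4838 in miR29WT. Rgs22, a testis protein, averaged 16.4 in miR29Nestin and 14.7 in miR29WT, below the filter.

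**Figure D3:**
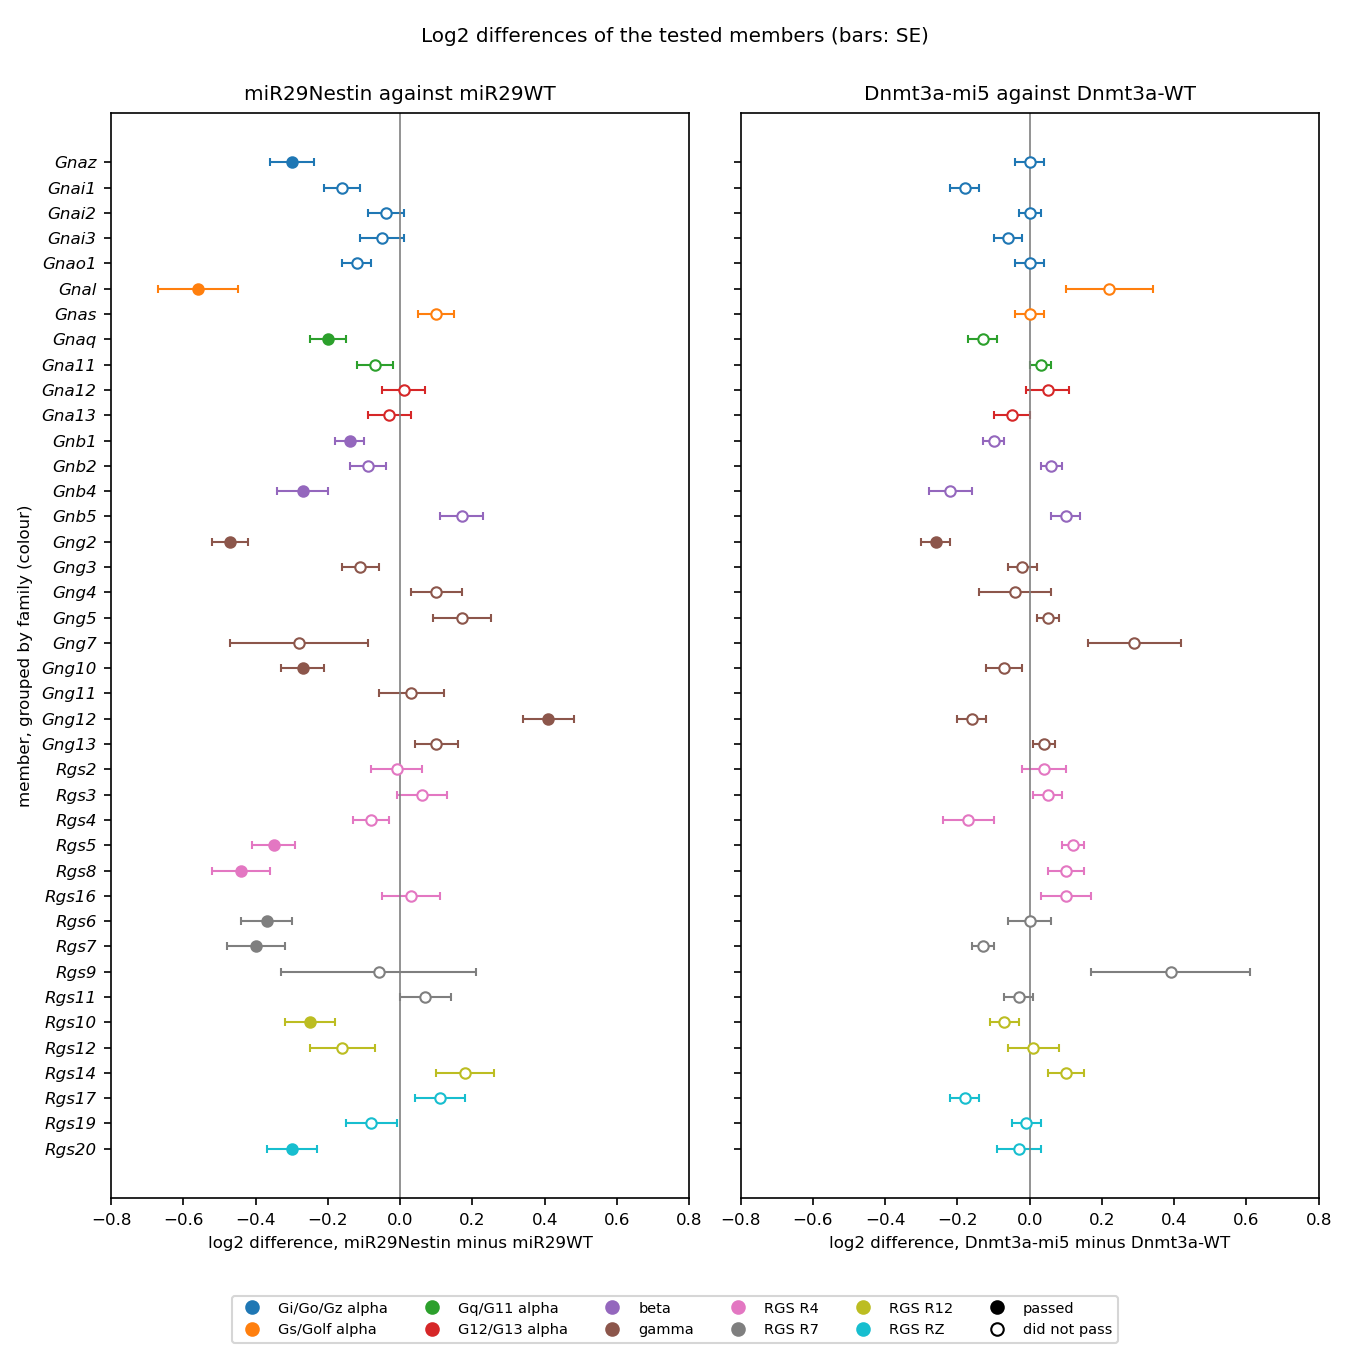
Log2 differences with SE (x axes) of the members tested, by family (y axis, colours), for miR29Nestin minus miR29WT (left) and Dnmt3a-mi5 minus Dnmt3a-WT (right). Filled points passed at a limma adjusted p under 0.05: 13 lower and 1 higher on the left, and Gng2 alone, lower, on the right.

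Cell type markers moved between the groups beside these members. Of 10 excitatory neuron markers 5 were lower and 0 higher (8 lower with the replicate block), with summed counts of 64407 to 68576 in miR29Nestin and 73422 to 84564 in miR29WT. Of 8 astrocyte markers 3 were higher and 1 lower, with sums of 16950.1 to 17652 in miR29Nestin and 15432 to 16106 in miR29WT. Of 5 oligodendrocyte precursor markers 2 were higher and 0 lower, with sums of 4409 to 4829.6 in miR29Nestin and 3747 to 4191 in miR29WT. Of 8 oligodendrocyte markers 2 were higher, Mbp and Mobp, and 0 lower, with sums of 106877 to 119086 in miR29Nestin and 98136 to 109166 in miR29WT. Of 10 interneuron markers 2 were higher and 3 lower. No marker of these lists was listed at 0 throughout. Their part in the lower neuronal members and in the higher Gng12 was not tested.

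Levels within a class were compared per kb of transcript, using the longest annotated one. Among alpha subunits Gnas held 47.9% of the class in miR29Nestin and 43.5% in miR29WT (SD 1.7 and 1.3 percentage points), followed by Gnao1 and Gnai2. Gnb1 held 48.3% of the beta subunits in miR29Nestin and 50.8% in miR29WT, and Gnb5 20.1% in miR29Nestin and 16.9% in miR29WT (SD 1.4 and 0.66). Among the gamma subunits Gng3 led with 38.2% in miR29Nestin and 38% in miR29WT. Gng2 held 10.7% in miR29Nestin and 13.9% in miR29WT (SD 0.71 and 0.4), and Gng12 7.52% in miR29Nestin and 4.95% in miR29WT (SD 0.53 and 0.097). Rgs4 alone held 54.8% of the RGS transcripts in miR29Nestin and 52.6% in miR29WT, and Rgs7, the next, 7.12% in miR29Nestin and 8.82% in miR29WT.

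Normalised counts per kb were also summed over each class. The RGS genes summed to 7017, 6861 and 6806 in the miR29Nestin libraries and to 7554, 7642 and 7587 in the miR29WT libraries, a ratio of 0.908. For beta subunits the sums were 5333, 5368 and 5312 in miR29Nestin and 5483, 5612 and 5733 in miR29WT (0.951). Neither class overlapped between the groups, whereas the sums of alpha subunits (9820.3 ± 223 in miR29Nestin and 10108 ± 243 in miR29WT) and gamma subunits (4522 ± 165 in miR29Nestin and 4939 ± 307 in miR29WT) did. These sums are given as a description with no test.

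**Figure D4:**
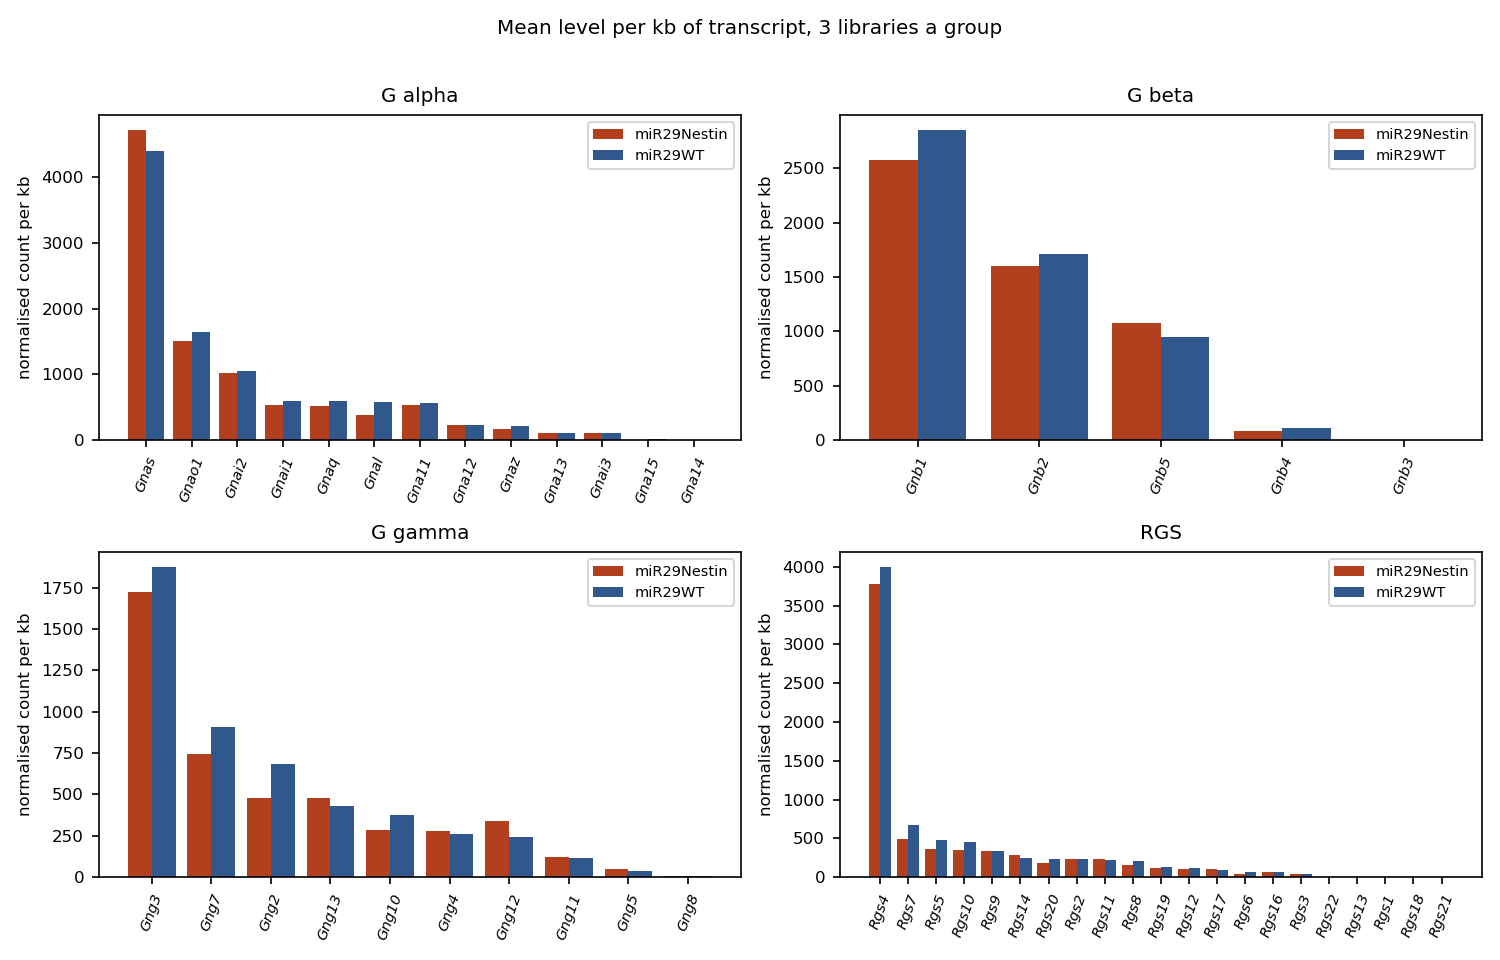
Mean normalised count per kb of transcript (y axes, from 0) of every member in miR29Nestin and miR29WT, by class. A few genes carry each class: Gnas, Gnb1 and Gnb2, Gng3, and Rgs4, which holds 54.8% of the RGS class in miR29Nestin and 52.6% in miR29WT.

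The members with a miR-29 site and those without one were set side by side. Of the 6 with a site Gng12 was higher and Gng2 and Rgs8 were lower, and of the 34 without one 11 were lower and 0 higher. Over all tested genes with an annotated UTR, 331 of 1925 with a site were higher and 166 lower, and 713 of 9636 without one were higher and 1007 lower. By gene length, 6 of the 9 tested members over 100 kb were lower (Gnaq, Gnal, Rgs6, Rgs7, Rgs20 and Gng2) and 1 was higher (Gng12). Of the 31 shorter members 7 were lower. Over all genes, 19.7% of those over 100 kb were lower and 8.14% of the shorter ones.

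Effectors and partners of the cycle were read from lists of known pathway genes. Of 14 adenylyl cyclases and protein kinase A subunits tested 5 were lower and 1 higher. Adcy1, the calcium-stimulated cyclase of neurons, had 5973, 6669 and 6003 normalised counts in miR29Nestin mice and 14631, 14632 and 16278 in the miR29WT libraries (0.409-fold, log2 difference −1.26, SE 0.06, limma adjusted p = 7.67e-07). The regulatory subunits Prkar1b (−0.30, adjusted p = 0.00241) and Prkar2b (−0.47, adjusted p = 0.00296) were lower and the catalytic subunit Prkaca was higher (0.30, adjusted p = 0.00331). Of 3 phospholipases C beta 2 were lower, Plcb1 (−0.25, adjusted p = 0.00858) and Plcb4 (−0.22, adjusted p = 0.0487). Of 12 enzymes that clear second messengers 3 were lower and 0 higher (5 lower with the replicate block), namely the phosphodiesterases Pde2a (−0.26, adjusted p = 0.013) and Pde4d (−0.18, adjusted p = 0.0446) and the diacylglycerol kinase Dgkz (−0.20, adjusted p = 0.0135).

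Calls in further lists are given here beside the 19.1% of all genes tested that were called. The receptor kinase Grk5 was lower, the 1 call among 6 receptor kinases and arrestins (log2 difference −0.34, limma adjusted p = 0.007). Of 3 G protein-gated potassium channel genes Kcnj3 was lower (−0.18, adjusted p = 0.0475), and 2 were lower with the replicate block. Of 13 chaperones and modulators of alpha subunits Rap1gap was higher (0.26, adjusted p = 0.00511) and Gprin1 lower (−0.21, adjusted p = 0.0181).

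Several of these effector calls were lost when a single library was left out, which also leaves fewer libraries to test. Plcb4 was lost without any 1 library but miR29Nestin 3 (limma adjusted p up to 0.168), Kcnj3 without any but miR29WT 3 (up to 0.143) and Pde4d without any but miR29WT 1 (up to 0.166). Gprin1 was lost without miR29Nestin 2, miR29WT 1 or miR29WT 2 (up to 0.0778). Pde2a was lost without miR29Nestin 2, miR29WT 2 or miR29WT 3 (up to 0.0665), and Dgkz without miR29WT 2 or 3 (up to 0.0618). Of the 5 lower cyclase and kinase genes, Adcy8 was lost without any 1 library but miR29Nestin 1 (0.0564 to 0.138) and with the Y-linked score (0.0627), and Prkar2a without miR29WT 2 (0.0586) or 3 (0.0528). Under quantile normalisation Kcnj3 (0.0944), Pde4d (0.0616) and Gprin1 (0.0527) were lost, and with no filter on low values Plcb4 (0.0561), Kcnj3 (0.0574) and Pde4d (0.057). Plcb4 was also lost with the Y-linked score (0.0605). The calls of Adcy1, Prkar1b, Prkar2b, Prkaca, Plcb1, Grk5 and Rap1gap held without each library in turn.

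With Dnmt3a alone released from miR-29, Gng2 was the 1 member called at 4.5 months, and it was lower, as in miR29Nestin. It had 1767, 1958, 1914 and 1967 normalised counts in the 4 Dnmt3a-mi5 libraries and 2277, 2504, 2363 and 2223 in the 4 Dnmt3a-WT libraries. The groups did not overlap, and the means of 1901 ± 92.5 in Dnmt3a-mi5 and 2342 ± 123 in Dnmt3a-WT (SD, n = 4 each) differed 0.812-fold. The log2 difference was −0.26 (SE 0.04, limma adjusted p = 0.038 over 10670 genes), and it was −0.31 and −0.20 within the 2 sets of 4 libraries whose mean difference the deposited values no longer hold. The call stood at the threshold: it was lost without any 1 library but Dnmt3a-WT library 2 (adjusted p = 0.0634 to 0.0985), with the removed effect as a term (0.107) and with the striatal marker score as a covariate (0.0776).

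That 1 call of 39 members tested made 2.56%. Of all genes tested 0.797% were called, 0.572% lower and 0.225% higher. At an unadjusted p under 0.05 stood 11 members (28.2%), and 19.0% of all genes. Every Dnmt3a-mi5 library lay below every Dnmt3a-WT library for 6 of 39 members (15.4%), against 6.67% of all genes. Every one lay above for 1 member (2.56%), against 5.33% of all genes. The median log2 difference of the members was 0.00, as was that of all genes. The 10 members below the filter were those of the miR29 table and Gng11. Of 10 excitatory neuron markers 0 passed here, with summed counts of 59766 to 65908 in Dnmt3a-mi5 and 65795 to 70293 in Dnmt3a-WT.

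**Figure D5:**
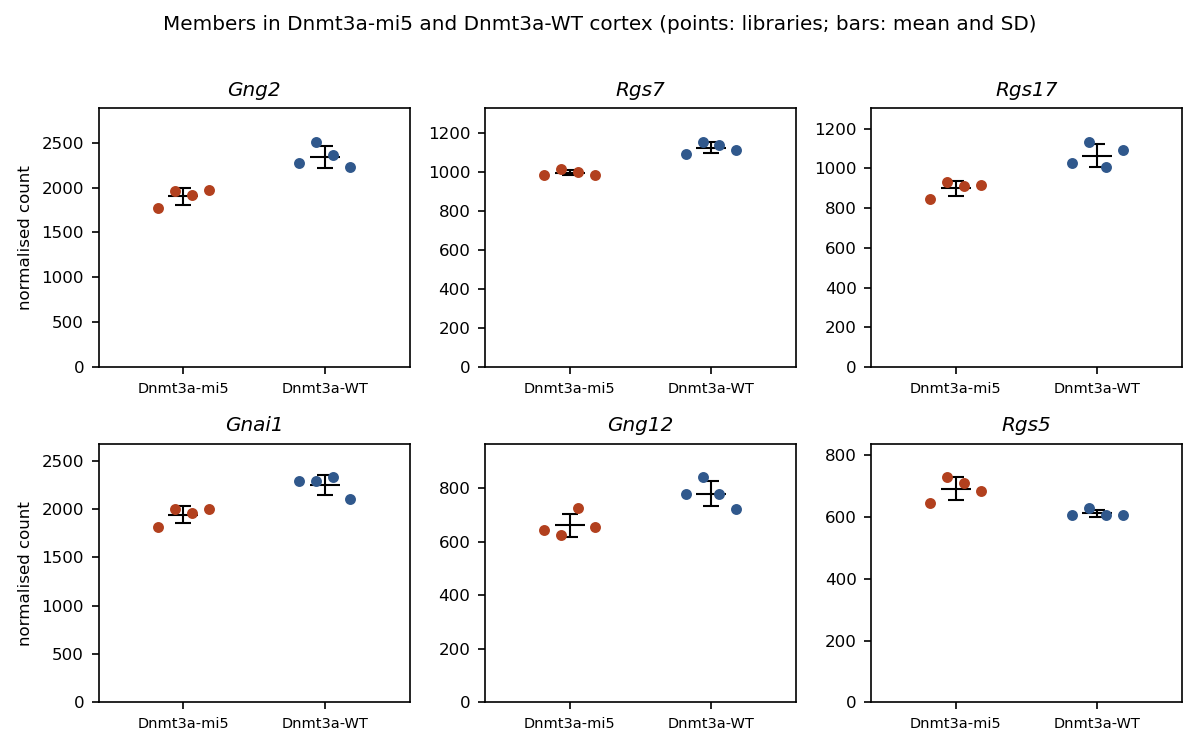
Normalised counts (y axes, from 0) of 6 members in the 4 Dnmt3a-mi5 and the 4 Dnmt3a-WT libraries, with mean and SD. Gng2 passed the test. Rgs7, Rgs17, Gnai1, Gng12 and Rgs5 did not, and were chosen after their values were seen as those with the next smallest adjusted p.

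The members next to the threshold are described in the order of their roles, with the within-set differences of each. Gnai1 had 1816, 2001, 1955 and 1998 normalised counts in the Dnmt3a-mi5 libraries and 2289, 2290.4, 2327 and 2099.9 in the Dnmt3a-WT libraries. Its groups did not overlap, but it did not pass (log2 difference −0.18, limma adjusted p = 0.0631, −0.22 and −0.14 within the sets). Rgs7 had 984, 1014, 1003 and 987 in the Dnmt3a-mi5 libraries and 1095, 1153, 1141 and 1115 in the Dnmt3a-WT libraries. This was a narrow spread on each side of a gap (−0.13, adjusted p = 0.0523, −0.13 and −0.14 within the sets). Rgs17 had 846, 929, 909 and 916 in the Dnmt3a-mi5 libraries and 1025, 1131, 1005 and 1092 in the Dnmt3a-WT libraries (−0.18, adjusted p = 0.0554, −0.21 and −0.15 within the sets). With a stricter filter on low values these 3 passed (limma adjusted p = 0.049 for Gnai1, 0.0373 for Rgs7 and 0.0415 for Rgs17), and with a robust variance prior Rgs7 and Rgs17 did (0.0474 each).

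Among the beta subunits Gnb1 had 6896, 7161, 7236 and 6953 normalised counts in the Dnmt3a-mi5 libraries and 7469, 7752, 7540.2 and 7538 in the Dnmt3a-WT libraries (log2 difference −0.10, limma adjusted p = 0.139). Gnb4 had 397, 332, 409 and 349.6 in the Dnmt3a-mi5 libraries and 427, 559, 427 and 519 in the Dnmt3a-WT libraries (−0.22, adjusted p = 0.0942). Neither overlapped between the groups and neither passed. Gnaq had 2421, 2557, 2478 and 2702 in the Dnmt3a-mi5 libraries and 2905, 2837, 2904 and 2625 in the Dnmt3a-WT libraries (−0.13, adjusted p = 0.13), overlapping in 1 library of each group. Within the sets the differences were −0.11 and −0.08 for Gnb1, −0.25 and −0.19 for Gnb4 and −0.18 and −0.08 for Gnaq.

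Gng12 and Rgs5 had differences of the opposite sign to those in miR29Nestin, as had Rgs8 and Gnal, which are given further below. Of the 14 members called in miR29Nestin 8 had the same sign in both models. Gng12, higher in miR29Nestin, had 643, 626, 724 and 653 normalised counts in the Dnmt3a-mi5 libraries and 779, 839, 776 and 723 in the Dnmt3a-WT libraries. All but 1 of the Dnmt3a-mi5 libraries lay below the lowest Dnmt3a-WT library (log2 difference −0.16, limma adjusted p = 0.0809, −0.24 and −0.08 within the sets). Rgs5, lower in miR29Nestin, had 645, 727, 710.4 and 682 in the Dnmt3a-mi5 libraries and 605, 627, 605 and 607 in the Dnmt3a-WT libraries. Every Dnmt3a-mi5 library was the higher, without passing (0.12, adjusted p = 0.0857, 0.10 and 0.13 within the sets). Of 5 pericyte and smooth muscle markers tested here 0 passed, with summed counts over the list of 1541 to 1678 in Dnmt3a-mi5 and 1389 to 1547 in Dnmt3a-WT, and their part in the level of Rgs5 was not tested. Whether the models differ in Gng12 and Rgs5 was not tested.

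The remaining members called in miR29Nestin showed no call and overlapping libraries here. Gnaz had 895, 944, 904 and 1002 normalised counts in Dnmt3a-mi5 and 898, 1003, 875 and 959.8 in Dnmt3a-WT (log2 difference 0.00). Rgs6 had 269.6, 266, 298 and 244 in Dnmt3a-mi5 and 323, 222, 232 and 306 in Dnmt3a-WT (0.00). For Rgs8 the counts were 1409.7, 1117, 1265 and 1201 in Dnmt3a-mi5 and 1135, 1120.3, 1109 and 1192 in Dnmt3a-WT (0.10). Their limma adjusted p were 0.985, 0.996 and 0.32.

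Gng10 stood at 295, 238, 301 and 269 normalised counts in Dnmt3a-mi5 and 282, 344, 292 and 291 in Dnmt3a-WT (log2 difference −0.07). Rgs20 stood at 348, 299, 371 and 281 in Dnmt3a-mi5 and 295, 384, 328 and 345 in Dnmt3a-WT (−0.03). Rgs10 had 211, 193, 217 and 187 in Dnmt3a-mi5 and 222, 226, 246 and 204 in Dnmt3a-WT (−0.07, limma adjusted p = 0.32). In this comparison 2 of 7 microglial markers tested were lower, Cx3cr1 and P2ry12, with summed counts over the list of 3676 to 4097 in Dnmt3a-mi5 and 4093 to 4302 in Dnmt3a-WT, and none at 0 throughout. The part of microglia in the level of Rgs10 was not tested.

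The striatum-enriched members were highest in Dnmt3a-mi5 libraries 1 and 3, which had the highest marker sums of this table. Gnal had 3657, 2620.5, 3733 and 2445 normalised counts in Dnmt3a-mi5 libraries 1 to 4 and 2577, 2524, 2282 and 2984 in Dnmt3a-WT libraries 1 to 4. The striatal marker sums of the same libraries were 16334, 10556, 17068 and 8679 in Dnmt3a-mi5 and 9502, 8623, 7604 and 12272 in Dnmt3a-WT. The log2 differences of Gnal (0.22), Gng7 (0.29) and Rgs9 (0.39) did not pass (limma adjusted p = 0.368, 0.273 and 0.364). With the marker covariate they were −0.04, 0.02 and −0.07 (adjusted p = 0.55, 0.901 and 0.645). Of the 13 members lower in miR29Nestin 8 had a negative difference in Dnmt3a-mi5, 5 of them at an unadjusted p under 0.05, namely Gng2, Rgs7, Gnaq, Gnb1 and Gnb4. Over the 39 members tested in both models 22 had the same sign. These counts were not made over all genes, so agreement between the models was not tested. No gene of the effector and partner lists was called in Dnmt3a-mi5 by limma, and of the 14 chaperones and modulators tested 2 stood at an unadjusted p under 0.05, of 13 cyclases and kinase subunits 4, and of 12 clearing enzymes 4.

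The other members tested in Dnmt3a-mi5 did not pass. Rgs4 averaged 4081 ± 257 normalised counts in Dnmt3a-mi5 and 4650.0 ± 541 in Dnmt3a-WT (SD, n = 4 each; log2 difference −0.17, limma adjusted p = 0.233). Gnb5, partner of Rgs7, averaged 1490.4 ± 74.9 in Dnmt3a-mi5 and 1369.7 ± 58.9 in Dnmt3a-WT (0.10, adjusted p = 0.199). Gnas, Gnao1 and Gnai2 had log2 differences of 0.00 (limma adjusted p = 0.996, 0.992 and 0.983). Gna13 had 854, 735, 808 and 768 normalised counts in Dnmt3a-mi5 and 841, 819, 918 and 758 in Dnmt3a-WT, which overlapped (−0.05, adjusted p = 0.579). For the remaining 15 members the differences lay between −0.06 and 0.10.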

How the data were processed

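Polyadenylated RNA of mouse cortex was sequenced from both ends for 50 cycles with strand-marking kits, per the labels' protocols. Named without role or version in the submitters' processing notes are STAR, Salmon, cutadapt, DESeq2 and the builds mm9 and hg19. The authors deposited log2 values from the variance-stabilising transformation of DESeq2, 1 table per model. Every column of per-sample values was used.

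The transformation was inverted from the zero level (6.5861 and 7.6295) to give normalised counts, which are approximate for the Dnmt3a table. Of the low values of the miR29 libraries, 87.2 to 89.6% came out whole to within 0.05 reads. The Dnmt3a table repeats its column names, so its libraries are numbered by column order and mapped to groups, not mice. Means of 2 sets of its libraries (Dnmt3a-mi5 1 and 2 with Dnmt3a-WT 1 and 2, and the rest) were equal for every gene within 5.5e-09. An additive effect had thus been removed, a step not given in the sources used here. Y-linked Kdm5d had 57.6 normalised counts in every library of the first set and 53.3 to 64.8 in the other. Uty had 35.3 in every library of the first set and 25.6 to 45.2 in the other. Eif2s3y had 60.9 in Dnmt3a-mi5 library 2 and in Dnmt3a-WT libraries 1 and 2, and 78.3 in Dnmt3a-mi5 library 1. It varied in the other set, and Ddx3y varied in both. These values come after the removal and need not be the levels before it. Whether the sets differ in sex was not tested.

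Groups were compared with limma 3.58.1 (R 4.3.3), fitting the variance as a trend on the mean, with p-values adjusted by Benjamini and Hochberg over each table, for genes with a mean at least 1 above its lowest value (48 and 80.1 normalised counts). Scripts were tested on simulated data. In the miR29 table same-numbered libraries deviated together (correlations of 0.335, 0.204 and 0.186 over genes), so the labels' numbers were taken to pair them, from this check alone. The check used the same values that the block then tested, and the striatal marker sum rose with the number in both groups. p-values measure the spread between these mice, and in the Dnmt3a table only the spread left after the removed effect. The main fit of that table makes no allowance for the removal, so its p-values can be too small. The fit with the removed effect as a term does allow for it. Members and lists were chosen with earlier results of these data known. Values in every library are given for called members and, in families with none, the member with the smallest p, and pathway genes are named if called, up to 4 a list. Python 3.11.15, numpy 2.4.6 and pandas 2.3.3 were used. Sites and lengths came from GENCODE M21 (GRCm38), matched by symbol (23793 genes). One list of pathway genes is not reported here.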

Additional observations from a re-analysis of the deposited data

Results flagged for a closer look

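In the groups of 4 Dnmt3a libraries, 1 library stood apart from the other 3 by Dixon's criterion for 5 members. Chance alone sets 1 library apart in about 1 in 20 groups, and 78 groups were examined. Gnai1 had 2099.9 normalised counts in Dnmt3a-WT library 4 and 2289 to 2327 in the other 3. Rgs3 had 159.6 in Dnmt3a-mi5 library 1 and 118 to 124 in the others. Rgs5 had 627 in Dnmt3a-WT library 2 and 605 to 607 in the others. Gng3 had 1618 in Dnmt3a-mi5 library 1 and 1778 to 1806 in the others. Gng5 had 93.4 in Dnmt3a-WT library 2 and 81.2 to 83 in the others.

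Rgs5 had differences of opposite sign in the models, with no overlap of the groups in either: its log2 difference was −0.35 in miR29Nestin, against miR29WT, and 0.12 in Dnmt3a-mi5, against Dnmt3a-WT. The difference between the models was not tested, and age and kits also differ between them.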

How the results depend on the processing

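In miR29Nestin the 14 called members became 11 to 15 when single libraries were left out, 18 with the replicate block, 17 with the striatal marker score and 13 with the Y-linked score. Gng2, Gng12, Rgs5, Rgs8, Rgs7, Gnaz, Gnal, Rgs6, Gng10, Rgs20 and Gnaq were called under all 15 alternatives. The block changed the calls of Gnai1, Gnao1, Gnb5 and Gng7 and of no other member. Rgs9 reversed to 0.16 (limma adjusted p = 0.0357) with the striatal marker score, and the cause was not tested. All genes called numbered 2289, and 1384 without miR29WT library 2, 1419 without miR29WT library 3 and 1474 without miR29Nestin library 2. Without miR29Nestin library 3 they numbered 2313. With the replicate block 3037 of all genes were called, with the striatal marker score 2941 and with the Y-linked score 2441. In Dnmt3a-mi5 the 1 called member became 4 with the stricter filter, 3 with the robust prior, 0 with the removed effect as a term, 0 with the striatal marker score and 0 to 1 without single libraries. The cause was not tested beyond the fewer genes or libraries in some of these fits. Its 85 called genes became 25 with no filter, 13 with the term, 38 with the striatal score and 9 to 176 without single libraries. They became 125 of 5487 tested with the stricter filter and 119 with the robust prior. No paired analysis was possible for Dnmt3a-mi5 because its repeated column names carry no mouse number. Depth is unknown for that table, and counts near the filter are least certain in both.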
